A study of Mus musculus with 4 samples.

Results

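Sox genes encode transcription factors that share the HMG box, a DNA-binding domain that inserts into the minor groove and bends the helix. The 6 Sox genes named for study here were Sox4, Sox9, Sox12, Sox13, Sox18 and Sox21, taken by symbol from a table of 14519 genes. Of these 6, 5 had a row in the table, and Sox18 was not analysed here. RNA was measured in sorted cells of the mouse colon, in 2 libraries labelled Reg4+ DCS (deep crypt secretory cells) and 2 labelled Lgr5+, which the study's title calls stem cells. The sources used here do not give the genotype, the reporter or antibody used for sorting, the strain, the age or how many animals stand behind a library. Each population is therefore known only by its label, and markers of other cell types are given beside the results. The comparison sets the DCS cells, which the title describes as a niche, against the stem cells.

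In the crypt, Sox9 is a Wnt-responsive factor of the proliferative base that Paneth cells of the small intestine need, and it can restrain Cdx2 and Muc2. Sox4 acts in progenitors and is needed for the normal development of tuft and enteroendocrine cells. Sox proteins are sorted into groups by their HMG box: Sox4 and Sox12 (with Sox11) belong to SoxC, Sox9 (with Sox8) to SoxE, Sox13 (with Sox5 and Sox6) to SoxD, Sox18 to SoxF, and Sox21 to SoxB, where it acts as a repressor. The TCF/LEF factors of the Wnt pathway carry a related HMG box.

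The coding stretch at the start of the HMG box is what makes these genes one family, and it is shown for 4 of the 6 genes to let their likeness be seen. It was found in the GENCODE M21 transcripts (GRCm38) with a degenerate pattern for the start of the HMG box, searched on the transcript strand and revised after a first form missed Sox13. Of 21877 coding genes, 20 held the pattern, and 20 of the 20 were named Sox or Sry. Each line starts at the pattern, reads 5′ to 3′ and runs for 75 bases, and capitals mark the bases that differ from Sox4.
Sox4: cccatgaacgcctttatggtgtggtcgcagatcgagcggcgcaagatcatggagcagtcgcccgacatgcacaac
Sox12: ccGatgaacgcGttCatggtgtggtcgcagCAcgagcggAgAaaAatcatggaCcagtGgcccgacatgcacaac
Sox21: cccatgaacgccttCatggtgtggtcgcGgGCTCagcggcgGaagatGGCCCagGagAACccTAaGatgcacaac
Sox13: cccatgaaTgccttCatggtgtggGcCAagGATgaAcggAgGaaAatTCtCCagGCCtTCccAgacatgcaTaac
Sox12, of the same group as Sox4, differed from it at 10 of these 75 bases, Sox21 at 19 and Sox13 at 23. Over 210 bases from the pattern the identity with Sox4 was 85.2% for Sox12, 72.9% for Sox21 and 63.3% for Sox13. Despite this likeness, 0 words of 50 bases (the read length) from Sox9, Sox12 or Sox13 transcripts occurred in transcripts of another gene on either strand. Of 4746 such words of Sox4, 2567 occurred in Gm26735, a long noncoding RNA gene annotated on the opposite strand, and 666 of 3750 words of Sox21 occurred in Gm4675, also on the opposite strand. Neither noncoding gene had a row in the table. The sources used here do not say whether the counting used strand, so reads of Sox4 and Sox21 cannot be told apart from reads of these partners.

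Expression was given as RPM, the reads of a gene per 1000000 in its library. The libraries were made by CEL-seq, which reads the 3′ ends of transcripts, so RPM values do not scale with transcript length and may be set side by side between genes. The steps between RPM values gave back whole reads: 5205723 and 7955340 in the Lgr5+ libraries. A Reg4+ DCS value was the average of 2 RPM values, from parts holding 5523304 and 1890960 reads in replicate 1 and 3004289 and 2443971 reads in replicate 2. The sources used here do not say what the parts were, and a column counted as 1 library. In each column the part with more reads is called part 1, so equal part numbers in the 2 columns do not mark matched parts. Between the populations, limma called 3475 of 10183 tested genes (34.1%) at an adjusted p under 0.05, 2744 of them (26.9%) higher in Lgr5+ cells. That total was 1419 without Reg4+ DCS replicate 1 and 2132 without Lgr5+ replicate 2. Log2 fold changes are given as Reg4+ DCS minus Lgr5+. Over the tested genes their median was −0.47 on the RPM scale and 0.02 after median-of-ratios scaling, which divides each library by 1 factor. With that scaling 2888 genes (28.4%) were called, 1591 (15.6%) on the Reg4+ DCS side and 1297 (12.7%) on the Lgr5+ side, so 44.9% of calls were on the Lgr5+ side in place of 79.0%. No label says that the replicates came from separate animals, so the p-values measure only the spread between these 4 libraries, which may be technical.

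Sox4, Sox9 and Sox21 were lower in Reg4+ DCS than in Lgr5+ cells, most of all Sox4. In 5 of the 5 genes both Lgr5+ libraries lay above both Reg4+ DCS libraries, which was so for 58.7% of all genes in the table. Of the 4 Sox genes that passed the filter of 5 RPM in at least 2 libraries, limma called 3 higher in Lgr5+ cells (Sox4, Sox9 and Sox21) and 0 higher in Reg4+ DCS cells, and Sox13 did not pass. In bulk libraries, fewer cells of a type and less RNA per cell cannot be told apart. Sox21 passed the filter only through the Lgr5+ libraries, so its direction was fixed in part by the filter. Sox12 was below the filter. After median-of-ratios scaling 2 of the 4 were called, Sox4 and Sox21, beside 12.7% of all tested genes on that side.

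**Figure D1:**
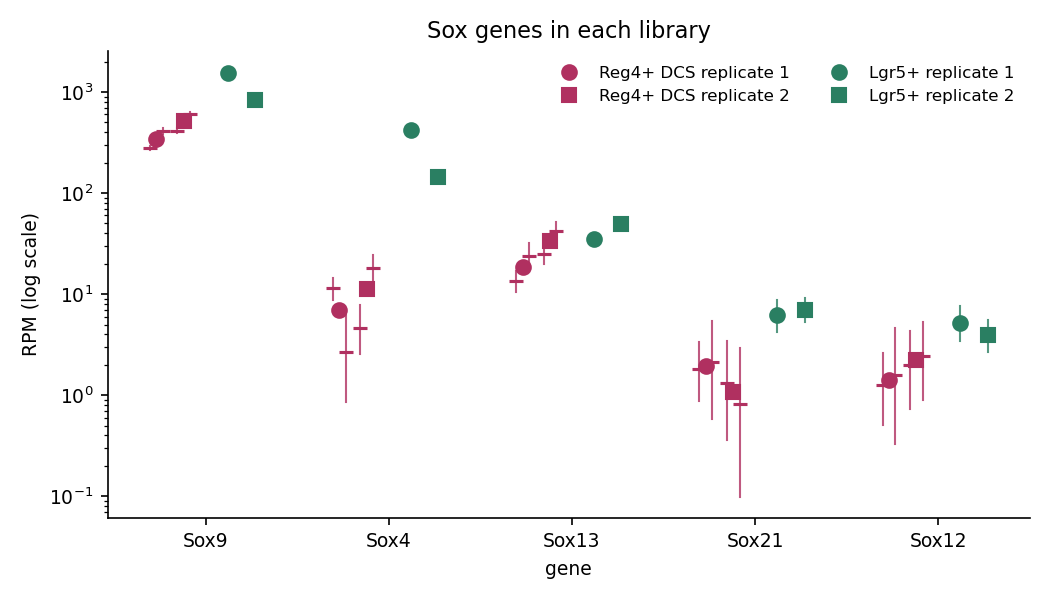
RPM (log axis) of 5 Sox genes in each library. Large marks are the deposited values, short horizontal ticks the 2 parts of each Reg4+ DCS column, and thin vertical lines 95% exact Poisson intervals, which cover counting error only and for Sox9 are mostly hidden by the marks. Sox4 stood at 143 and 418 RPM in Lgr5+ libraries and at 7.03 and 11.3 RPM in Reg4+ DCS libraries.

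Sox4 (ENSMUSG00000076431.4) is a gene of a single exon on the minus strand of chromosome 13, from 28948919 to 28953713 (GRCm38). Sox4 stood at 7.03 and 11.3 RPM in Reg4+ DCS replicates 1 and 2, and at 418 and 143 RPM in Lgr5+ replicates 1 and 2. The groups did not overlap: the lower Lgr5+ library was 12.7 times the higher Reg4+ DCS library. The means were 9.18 ± 3.05 and 281 ± 194 RPM (SD, n = 2 per group), a ratio of 30.6. The ratio of the Sox4 means was 15.6 without Lgr5+ replicate 1 and 45.6 without Lgr5+ replicate 2. On the log2(RPM + 1) scale the difference was −4.63 (95% interval −5.71 to −3.54, SE 0.47, limma adjusted p = 0.00048), and after median-of-ratios scaling it was −4.15 (adjusted p = 0.000409). Of the 10183 tested genes, 35 had a lower log2 fold change than Sox4. In rank, Sox4 went from percentile 43.9 and 48.2 of all genes in the Reg4+ DCS libraries to 97.9 and 92.5 in the Lgr5+ libraries. Its values are counts of 68 and 58 reads in Reg4+ DCS cells and 2177 and 1141 reads in Lgr5+ cells.

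The Sox4 level within Reg4+ DCS columns was uneven. In replicate 1, part 1 held 63 Sox4 reads (11.4 RPM, 95% exact Poisson interval 8.76 to 14.6) and part 2 held 5 (2.64 RPM, 0.859 to 6.17). In replicate 2 part 2 was the higher, with 14 reads in part 1 (4.66 RPM, 2.55 to 7.82) and 44 in part 2 (18.0 RPM, 13.1 to 24.2). The intervals of the 2 parts did not overlap in either column, so the parts differed by more than counting error. Every part lay far below both Lgr5+ libraries. Taking part 1 alone from both columns gave a Sox4 log2 fold change of −4.88, and part 2 alone gave −4.89 (limma adjusted p = 0.000921 and 0.00653).

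Promoters of the Sox genes were searched for short motifs, and the windows of Sox4 and Sox21 are printed. All 5 measured Sox genes were lower in the Reg4+ DCS libraries, so a shared direction does not set this pair apart. The RefSeq promoter table (GRCm38.p6) held Sox4, Sox12, Sox13 and Sox21 among the 6 genes. The window runs from 250 bases before to 50 after the annotated start, on the minus strand for both genes printed, and capitals mark matches on either strand. The motifs searched were the CCAAT box, the core ACAAT that Sox proteins bind, the TCF core CTTTGA and the TATA box as TATAAA, and they overlapped nowhere in these windows.
Sox4, chr13:28953650-28953949: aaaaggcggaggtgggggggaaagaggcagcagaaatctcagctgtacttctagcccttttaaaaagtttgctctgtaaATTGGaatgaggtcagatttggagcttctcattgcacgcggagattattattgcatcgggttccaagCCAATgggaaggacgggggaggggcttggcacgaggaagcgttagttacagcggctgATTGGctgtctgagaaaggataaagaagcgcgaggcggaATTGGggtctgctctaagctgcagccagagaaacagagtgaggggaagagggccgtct
Sox21, chr14:118236981-118237280: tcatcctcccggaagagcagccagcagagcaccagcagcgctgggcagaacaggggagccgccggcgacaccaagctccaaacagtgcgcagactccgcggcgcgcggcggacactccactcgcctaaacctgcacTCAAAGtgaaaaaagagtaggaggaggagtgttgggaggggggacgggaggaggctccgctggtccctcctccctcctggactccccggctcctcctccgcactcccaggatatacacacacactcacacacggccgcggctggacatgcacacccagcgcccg
The Sox4 window held CCAAT 1 time and its reverse complement ATTGG 3 times. CCAAT or ATTGG occurred at least 1 time in 37.4% of 32851 promoters of this length, and the share with as many matches as Sox4 was not counted. Counted from the RefSeq start, the Sox4 matches began at −171, −104, −47 and −8. The RefSeq start lies inside the GENCODE span of Sox4 given above, and so does the match at −8. The Sox21 window held 1 match, TCAAAG, the reverse complement of CTTTGA, at −114, letters found on either strand in 16.0% of promoters. Sox12 had 1 match to ATTGG, and the Sox13 window had 0 matches to the 4 motifs. Of all promoters, 31.0% held ACAAT or its reverse complement ATTGT and 13.6% TATAAA or its reverse complement TTTATA. The matches share no motif between Sox4 and Sox21.

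Sox9 (ENSMUSG00000000567.5), with 3 exons on the plus strand of chromosome 11 from 112782224 to 112787760, was the most abundant Sox gene in every library. Sox9 stood at 345 and 511 RPM in Reg4+ DCS replicates 1 and 2, and at 1543 and 841 RPM in Lgr5+ replicates 1 and 2. The groups did not overlap, but the lower Lgr5+ library was only 1.65 times the higher Reg4+ DCS library, and the Lgr5+ libraries themselves differed 1.83-fold. Its means were 428 ± 118 and 1192 ± 497 RPM (SD, n = 2 per group), a ratio of 2.78. The Sox9 log2 fold change was −1.44 (95% interval −2.22 to −0.66, SE 0.34, limma adjusted p = 0.0149). This call was lost after median-of-ratios scaling (−0.93, adjusted p = 0.058) and without Reg4+ DCS replicate 1 (−1.15, adjusted p = 0.136). Even in Reg4+ DCS cells Sox9 was at percentile 97.6 and 98.3 of all genes, so it was a lower but still abundant transcript there. In both Reg4+ DCS columns part 2 was above part 1, at 412 against 278 RPM in replicate 1 and 608 against 415 RPM in replicate 2. With part 2 alone the Sox9 log2 fold change was −1.19 and did not pass (limma adjusted p = 0.0529).

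Sox13 (ENSMUSG00000070643.11) spans 42075 bases on the minus strand of chromosome 1, from 133382303 to 133424377, with up to 14 exons. It lacks an activation domain of its own and can bind the Wnt factor Tcf7. Sox13 stood at 18.6 and 33.8 RPM in Reg4+ DCS replicates 1 and 2 and at 34.96 and 49.5 RPM in Lgr5+ replicates 1 and 2. The higher Reg4+ DCS library nearly reached the lower Lgr5+ library, and the gap between the populations was smaller than the spread within either. Its means were 26.2 ± 10.7 and 42.2 ± 10.3 RPM (SD, n = 2 per group). The Sox13 log2 fold change of −0.71 (95% interval −1.50 to 0.08, SE 0.34) did not pass with limma (adjusted p = 0.14), and it was −0.21 after median-of-ratios scaling (95% interval −0.90 to 0.47, adjusted p = 0.633). With part 1 alone of each Reg4+ DCS column it passed (−1.14, limma adjusted p = 0.0424). As with Sox9, part 2, the part with fewer reads, was the higher in both columns, at 23.8 against 13.4 RPM and at 42.6 against 24.96 RPM.

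Sox21 (ENSMUSG00000061517.8), a gene of a single exon on the minus strand of chromosome 14 from 118233232 to 118237030, was rare in both populations. Sox21 stood at 1.96 and 1.07 RPM in Reg4+ DCS replicates 1 and 2, from 14 and 6 reads, and at 6.15 and 7.04 RPM in Lgr5+ replicates 1 and 2, from 32 and 56 reads. The groups did not overlap, and the lower Lgr5+ library was 3.13 times the higher Reg4+ DCS library. Its means were 1.52 ± 0.628 and 6.59 ± 0.631 RPM (SD, n = 2 per group), a ratio of 4.34. The Sox21 log2 fold change was −1.61 (95% interval −2.44 to −0.79, SE 0.36, limma adjusted p = 0.0118), on a log2(RPM + 1) scale that understates the change of so low a gene. After median-of-ratios scaling it was −1.23 (adjusted p = 0.0442). Without Reg4+ DCS replicate 2 the adjusted p was 0.0509, and without either Lgr5+ library the gene missed the filter and was not tested.

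Sox12 (ENSMUSG00000051817.8) lies on the minus strand of chromosome 2, from 152393611 to 152398063. Sox12, the SoxC partner of Sox4, stood at 1.43 and 2.23 RPM in Reg4+ DCS replicates 1 and 2, and at 5.19 and 3.90 RPM in Lgr5+ replicates 1 and 2. The values rest on 10, 12, 27 and 31 reads in that order. Its means were 1.83 ± 0.565 and 4.54 ± 0.912 RPM (SD, n = 2 per group), a ratio of 2.49. When the filter was lowered to 1 RPM the Sox12 log2 fold change was −0.98 and did not pass (limma adjusted p = 0.0602). The SoxC genes thus differed in size of change, with a ratio of 30.6 for Sox4 and 2.49 for Sox12, and that difference between genes was not tested.

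**Figure D2:**
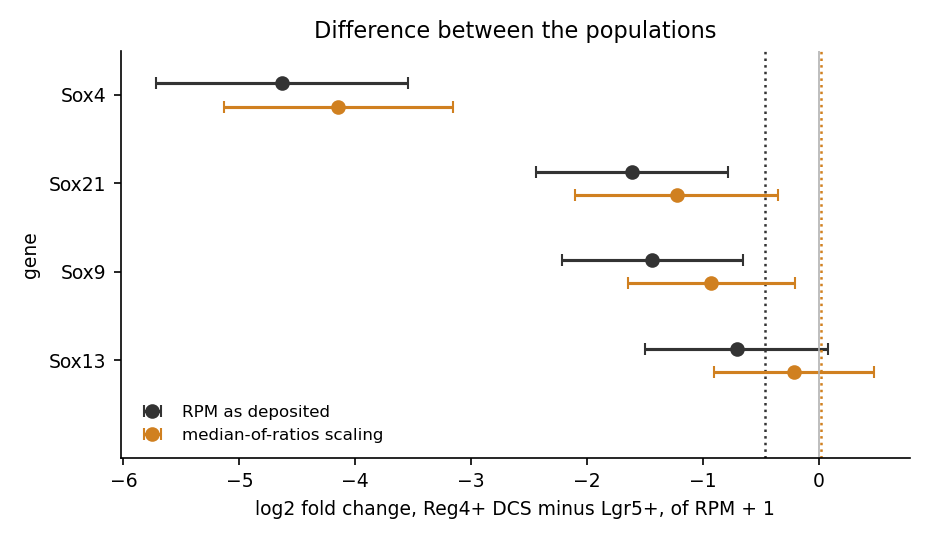
Log2 fold change of the 4 tested Sox genes (Reg4+ DCS minus Lgr5+, on RPM + 1) with 95% limma intervals, on the RPM scale and after median-of-ratios scaling. Dotted lines mark the median of all tested genes, −0.47 and 0.02, and the Sox4 interval lies wholly below the other genes' estimates.

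Among the named Sox genes, the order of levels in Reg4+ DCS cells was Sox9, Sox13, Sox4, and then Sox12 and Sox21, whose ranges overlapped. In Lgr5+ cells it was Sox9, Sox4, Sox13, Sox21 and Sox12, and the ranges of neighbours in this order did not overlap. Sox4 and Sox13 thus changed places between the populations. The ratio of Sox4 to Sox13 was 0.378 and 0.336 in the Reg4+ DCS libraries and 11.96 and 2.90 in the Lgr5+ libraries. The closeness of the Reg4+ DCS ratios rests on averaged parts. Sox4 lay below Sox13 in each part, but in part 1 of replicate 1 their counting intervals overlapped. There Sox4 was at 11.4 RPM (8.76 to 14.6) and Sox13 at 13.4 RPM (10.5 to 16.8). There were 49.1 and 45.1 Sox9 reads per Sox4 read, by RPM, in Reg4+ DCS replicates 1 and 2, and 3.69 and 5.87 in Lgr5+ replicates 1 and 2. The Sox4 to Sox9 ratio was on average 10.1 times higher in Lgr5+ cells (log2 difference −3.34, pooled SD 0.34, n = 2 per group). That small SD rests on averaging unlike parts of the Reg4+ DCS columns. Sox9 per Sox4 was 24.4 in part 1 and 155.8 in part 2 of replicate 1, and 89.0 in part 1 and 33.8 in part 2 of replicate 2. The Lgr5+ to Reg4+ DCS fold of the Sox4 to Sox9 ratio was 10.02 with part 1 alone (pooled SD 0.99 on the log2 scale) and 15.6 with part 2 alone (pooled SD 1.15). With reads pooled over the parts, Sox9 per Sox4 was 34.1 and 47.1 in Reg4+ DCS replicates 1 and 2, and the fold was 8.61. In all 4 parts Sox9 per Sox4 lay above both Lgr5+ libraries. With 2 libraries against 2 an exact permutation test, two-sided, cannot give a p below 0.333, so none is reported.

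The family also differed in total. The 11 Sox genes of the table summed to 376 and 562 RPM in Reg4+ DCS replicates 1 and 2, and to 2024 and 1053 RPM in Lgr5+ replicates 1 and 2. Sox9 made up 91.8% and 91.0% of this sum in Reg4+ DCS cells and 76.3% and 79.9% in Lgr5+ cells. Sox4 made up 1.87% and 2.02% against 20.7% and 13.6%. The share of Sox13 was 4.95% and 6.01% in Reg4+ DCS libraries and 1.73% and 4.70% in Lgr5+ libraries. The shares of Sox9 and Sox4 did not overlap between populations, though those of Reg4+ DCS cells come from averaged parts as well.

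**Figure D3:**
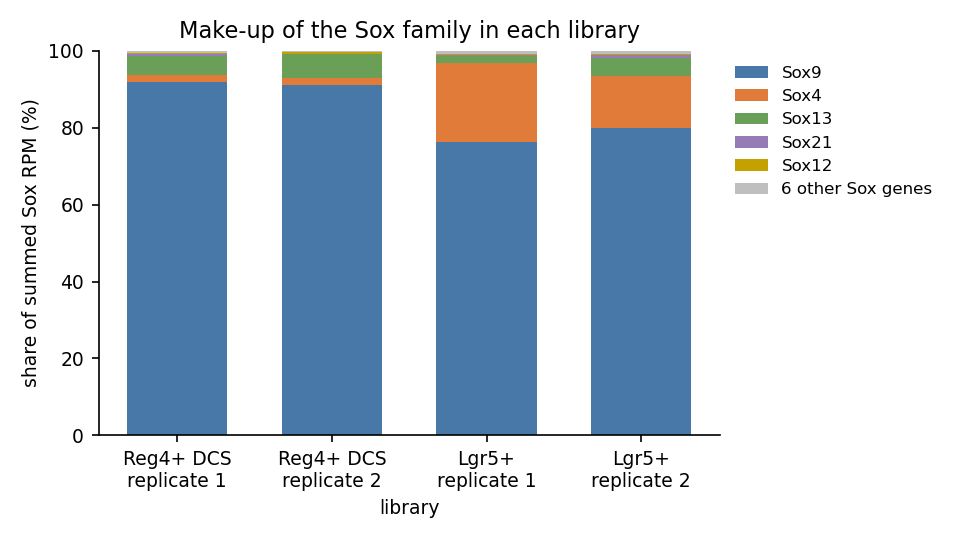
Share of the summed RPM of 11 Sox genes (%, stacked to 100) held by each gene in each of the 4 libraries. Sox9 holds 91.0% to 91.8% in Reg4+ DCS and 76.3% to 79.9% in Lgr5+ libraries, and the Sox4 share is 20.7% and 13.6% in Lgr5+ against 1.87% and 2.02% in Reg4+ DCS libraries.

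The other 6 Sox family genes in the table were scarce, and all lay below the filter. Sox6, a SoxD relative of Sox13, stood at 1.87 and 2.10 RPM in Reg4+ DCS and at 7.68 and 2.39 RPM in Lgr5+ libraries. Sox5, also SoxD, had a listed 0 in each Reg4+ DCS library and stood at 4.80 and 3.27 RPM in Lgr5+ libraries, from 25 and 26 reads. Sox1, Sox2, Sox8 and Sox11 were likewise at 0 in each Reg4+ DCS column, and the highest of them in an Lgr5+ library was Sox8 at 1.34 RPM. The zeros of the table were not independent: 1645 genes were at 0 in each Reg4+ DCS column, and 1641 of them were the same genes. A Sox gene listed at 0 in both columns is therefore not a result seen in 2 libraries separately, and no fold is given. Sox2ot, the noncoding transcript around Sox2, stood at 1.53 and 1.52 against 2.88 and 2.89 RPM.

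Genes around the Sox factors were examined by lists, each given by its counts beside the 26.9% called higher in Lgr5+ and the 7.18% called higher in Reg4+ DCS among all tested genes. Of 12 tested TCF/LEF factors and cofactors, 1 was called on the Reg4+ DCS side and 3 on the Lgr5+ side, with a median log2 fold change of −0.44 against −0.47 for all tested genes. The 1 was Tcf7l1, a TCF factor that mostly represses, at 231 and 470 RPM in Reg4+ DCS and 117 and 84.1 RPM in Lgr5+ libraries (1.72, limma adjusted p = 0.00819). The 3 were the corepressor Tle3 (−1.58, limma adjusted p = 0.00346), the beta-catenin cofactor Bcl9 and the corepressor Ctbp2, whose call was lost after median-of-ratios scaling (limma adjusted p = 0.193). Tcf7l2, the main TCF of the gut epithelium, did not pass, at 136 and 133 against 148 and 99.9 RPM. Of 18 other HMG-box genes, 7 were higher in Lgr5+ and 0 in Reg4+ DCS cells, and 4 and 0 after median-of-ratios scaling, with a median of −0.67. Hmgb2, a chromatin protein of dividing cells, led them at 90.6 and 102 RPM against 426 and 420 RPM (−2.13, limma adjusted p = 0.000452), followed by Hmgb3 and Hmgb1 (−1.95 and −1.85).

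Wnt target genes of the crypt base, on a list without Sox9, were mostly higher in Lgr5+ cells. Of 11 tested, 10 were higher in Lgr5+ and 0 in Reg4+ DCS cells, with a median of −2.04, and 9 were called after median-of-ratios scaling. Of the 10, Ascl2, Znrf3 and Nkd1 passed the filter only through the Lgr5+ libraries, so their direction was set by it. Cd44, a surface glycoprotein, stood at 5.79 and 4.11 RPM in Reg4+ DCS and at 145 and 138 RPM in Lgr5+ libraries (−4.60). Ascl2, a stem cell factor, had a log2 fold change of −4.45 and Axin2, a feedback inhibitor of Wnt, −3.37. Myc was the tested member that did not pass (−0.25, limma adjusted p = 0.575). Against this list, the Sox9 change of −1.44 was nearer to that of Ephb2, a guidance receptor of crypt cells (−1.47), and Lrig1, an ErbB inhibitor of stem cells (−1.30).

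Of 7 genes reported downstream of Sox9, 1 was called on the Reg4+ DCS side and 3 on the Lgr5+ side, with a median of −0.25. After median-of-ratios scaling the counts were 1 and 1. Muc2, the gel-forming mucin, rose by 4.73 on the log2 scale, while Cdx2, a homeobox factor of intestinal identity, fell by 1.74, so the 2 genes that Sox9 can restrain moved in opposite directions. Cdx2 stood at 50.4 and 41.1 RPM in Reg4+ DCS and at 208 and 115 RPM in Lgr5+ libraries. Prkca and Ccnd1 were the other 2 that fell, and neither call held after median-of-ratios scaling (limma adjusted p = 0.417 and 0.118). Ceacam1, Cldn7 and Myc did not pass. Of 4 tested genes reported downstream of Sox4 or binding it, 3 were higher in Lgr5+ cells: Ezh2, a histone methyltransferase (−1.65, limma adjusted p = 0.00349), Tead2, a Hippo pathway factor (−1.59), and Dicer1, a ribonuclease of microRNA processing (−0.87), of which Dicer1 did not pass after median-of-ratios scaling (limma adjusted p = 0.231). Sdcbp, an adaptor that binds Sox4, did not pass on the RPM scale (0.34, limma adjusted p = 0.261) and passed as higher in Reg4+ DCS cells after median-of-ratios scaling (adjusted p = 0.0259).

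Transcription factors of the secretory lineage ran opposite to the Sox genes. Of 11 tested, 10 were called, each on the Reg4+ DCS side, with a median of 1.95, led by Atoh1, the factor that commits cells to secretory fate (4.07), Spdef (3.73) and Gfi1 (3.58). After median-of-ratios scaling 10 were called on that side as well. Of the 10, 1 passed the filter only through the Reg4+ DCS libraries. Of 7 tested Notch receptors, effectors and Id factors, 3 were higher in Lgr5+ cells and 0 in Reg4+ DCS cells, namely Notch1 (−4.60), Notch2 (−2.89) and Hes1 (−1.22), with a median of −0.39. Notch1 and Notch2 passed the filter only through the Lgr5+ libraries, which set their direction. The Hes1 call did not hold after median-of-ratios scaling (limma adjusted p = 0.126).

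Markers of other cell types were set beside the Sox genes, because Sox4 is also made by tuft cells and their precursors. Of 17 tuft markers, 16 were in the table, and their RPM summed to 8.05 and 11.5 in Reg4+ DCS replicates 1 and 2, and to 1477 and 452 in Lgr5+ replicates 1 and 2. In Reg4+ DCS libraries 9 of the 16 were listed at 0, among them the tuft factor Pou2f3. Of 14 tested, 14 were higher in Lgr5+ cells, with a median of −4.90, and 14 were after median-of-ratios scaling. Of the 14, 13 passed the filter through the Lgr5+ libraries alone, so their direction was set by it. Dclk1, a kinase that marks tuft cells, stood at 286 and 83.2 RPM in Lgr5+ libraries and at 0.793 and 0.409 RPM in Reg4+ DCS libraries. The 16 tuft genes were 2.22 to 4.62 times higher in Lgr5+ replicate 1 than in replicate 2, with a median of 3.17, and Sox4 was 2.92 times higher. The median of this ratio over tested genes was 1.02, and 2.50% of them had a ratio as high as that of Sox4. For Sox9 the ratio was 1.83, reached by 8.10% of tested genes, and for crypt Wnt targets the median over 15 genes was 0.928. Between the Lgr5+ libraries tuft markers thus differed as Sox4 did. Between the populations the filter had set the direction of 13 of the 14, so their sharing of the Sox4 direction is no separate result. Of the 7 tuft genes above 0 in the Reg4+ DCS libraries, 3 were higher in replicate 2, as Sox4 was, and 4 were lower. These 7 genes stood at only 0.333 to 5.53 RPM there, and the Sox4 order itself depended on which parts were set side by side. The order of the Reg4+ DCS libraries therefore cannot show whether tuft markers moved with Sox4 there. The part of tuft markers in the Sox4 difference was not tested.

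**Figure D4:**
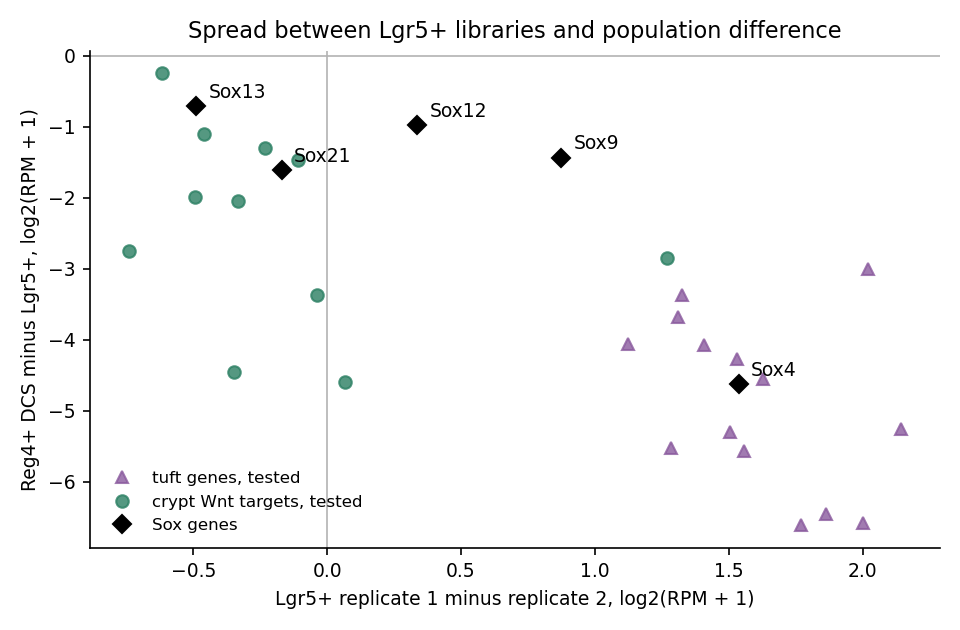
Each point is a gene, with the difference between the Lgr5+ libraries (replicate 1 minus replicate 2, log2(RPM + 1)) on the horizontal axis and the difference between populations (Reg4+ DCS minus Lgr5+) on the vertical axis. Triangles are tuft genes and circles crypt Wnt targets. Sox4 lies among the 14 tested tuft genes, and the other 4 Sox genes lie above them, at differences between populations from −1.61 to −0.71. Of the 14 tuft genes, 13 passed the filter only through the Lgr5+ libraries.

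Markers of enteroendocrine cells, the other lineage linked to Sox4, were examined in the same way. Of 21 markers, 15 were in the table, and they summed to 52.9 and 72.2 RPM in Reg4+ DCS and to 147 and 96.4 RPM in Lgr5+ libraries. Of 7 tested, 1 was higher in Lgr5+ cells, the granule protein Chga (−1.92, limma adjusted p = 0.0067), and 0 were higher in Reg4+ DCS cells. The median log2 fold change of the 7 was −0.77, against −0.47 for all tested genes. In Lgr5+ replicate 1, 12 of the 15 were higher than in replicate 2, and 5 were at least double. The median of this ratio was 1.53, beside 2.92 for Sox4. Chga stood at 0.989 and 1.98 RPM in Reg4+ DCS and at 9.41 and 7.16 RPM in Lgr5+ libraries, so it passed the filter only through the latter, which set its direction. Neurod1, a factor of endocrine commitment, was listed at 0 in Reg4+ DCS and stood at 1.73 and 1.01 RPM in Lgr5+ libraries. Of 5 tested Paneth markers, 4 were higher in Reg4+ DCS cells, with a median of 4.39, among them Ang4, an antimicrobial ribonuclease. Those 4 moved opposite to Sox9, while the other tested marker, Cd24a, leaned the same way as Sox9 and did not pass (−0.68, limma adjusted p = 0.0774). The lysozyme Lyz1, which defines Paneth cells, was below the filter at 1.62 and 0.908 RPM in Reg4+ DCS libraries.

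About as many markers of non-epithelial cells lacked a row as had one. Of 14 endothelial markers, 7 were in the table, at sums of 4.98 and 8.07 RPM in Reg4+ DCS and 26.5 and 20.9 RPM in Lgr5+ libraries, and Pecam1 was listed at 0 in Reg4+ DCS libraries and did not exceed 0.576 RPM in Lgr5+ libraries. Of 15 leukocyte markers, 7 were in the table, at 11.9 and 10.7 against 64.4 and 21.2 RPM, a sum 3.03 times higher in Lgr5+ replicate 1 than in replicate 2, beside 2.92 times for Sox4. Ptprc, the leukocyte antigen CD45, was listed at 0 in each Reg4+ DCS column and stood at 40.1 and 9.55 RPM in Lgr5+ libraries, in replicate 1 above Sox13. It was called on the Lgr5+ side (−4.38, limma adjusted p = 0.00144), having passed the filter only through those libraries. Of 11 fibroblast and muscle markers, 5 were in the table, and they summed to at most 5.76 RPM in a library. Of 8 glial markers, 4 were in the table and summed to at most 13.4 RPM, mostly from Erbb3, a receptor that epithelium also makes, which was called on the Lgr5+ side (−1.09, limma adjusted p = 0.0385) but not after median-of-ratios scaling (adjusted p = 0.144). All 8 epithelial markers were present, at 8764 to 11598 RPM in sum, and Epcam, the epithelial adhesion molecule, came nearest to passing on the RPM scale (−0.62, limma adjusted p = 0.0632). The part of these markers in the Sox differences was not tested.

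For each tested Sox gene, the 3 genes with the most similar profile over the 4 libraries were found by the root mean square difference of log2(RPM + 1) values after centring each gene. For Sox4 they were Strip2 (0.15), Hmx2 (0.22) and Plcb2 (0.25), of which Hmx2, a homeobox factor, stands on the tuft list. Strip2 stood at 0.981 and 1.41 RPM in Reg4+ DCS and at 91.1 and 26.4 RPM in Lgr5+ libraries, while Hmx2 and Plcb2 were at 0 in both Reg4+ DCS columns. For Sox9 they were Caskin2, Exosc9 and Fes, at differences of 0.07 to 0.08. For Sox13 they were Ankmy2, Nudcd3 and Mrpl48 (0.02 to 0.04), and for Sox21 Mfsd7b (0.01), Hist1h2bj and Unc5cl (both 0.07). The likeness is over 4 libraries and is a description.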

How the data were processed

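RNA from 2 libraries each of Reg4+ DCS and Lgr5+ cells was measured by CEL-seq, per the labels' protocols. BWA 0.6.2-r126 and the build mm10 are named in the submitters' processing notes. The sources used here do not give the gene counting, the annotation or any use of molecular identifiers. The authors deposited RPM values, each column summing to 1000000. Reads were recovered from the RPM steps (100% of values in Lgr5+ columns whole within 0.01 reads, 99.8% and 98.6% of genes decoded uniquely in Reg4+ DCS replicates 1 and 2). Counting intervals are 95% exact Poisson intervals and cover counting error only.

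Genes at 5 RPM or more in at least 2 libraries were tested with limma 3.58.1 in R 4.3.3 (trend, group as the only term) on log2(RPM + 1). Benjamini-Hochberg adjustment was over all tested genes, with a threshold of 0.05. The procedure was tested on simulated data in which the most abundant genes were left unchanged. That test therefore did not cover a shift of all RPM values by such genes. Alternatives were other pseudocounts, filters and scaling, edgeR 4.0.16 on recovered reads, the replicate number as a block, each library left out and, chosen after seeing the data, each part of the Reg4+ DCS columns alone and, for the Sox4 to Sox9 ratio, reads pooled over the parts. The members, the 16 gene lists and the rule for named genes were chosen with earlier results of these data known. The rule names all Sox genes, up to 3 called genes per direction of each list and the 3 nearest profiles of each tested Sox gene. Other list genes that are named were chosen after their values were seen. Positions are from GENCODE M21 (GRCm38, the assembly called mm10).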

Additional observations from a re-analysis of the deposited data

How the results depend on the processing

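Sox4 was called lower in Reg4+ DCS cells under 15 of 15 alternatives, with log2 fold changes from −5.40 to −3.86, the same range as without 1 library at a time. The left-out fits keep a lone library in 1 group, which is assumed to vary like the other group. Sox9 was lower in 15 of 15 alternatives and called in 12. It missed the threshold after median-of-ratios scaling (−0.93), with part 2 of each Reg4+ DCS column (−1.19) and without Reg4+ DCS replicate 1, and it ranged from −1.87 to −1.0 without 1 library at a time. Sox21 was called in 11 of 12 alternatives in which it was tested, with −2.10 (pseudocount 0.1 RPM) to −0.83 (pseudocount 5 RPM) over them and −1.87 to −1.36 without 1 library, the call being lost without Reg4+ DCS replicate 2. It was not tested at a filter of 20 RPM. Sox13 was called in 1 of 15, with part 1 of each Reg4+ DCS column (−1.14), and the cause of these losses and gains was not tested. The count of genes called ranged from 1419 to 2637 without 1 library at a time, where fewer samples enter the fit. edgeR called 2755 genes, among them Sox4 (−4.37), Sox9 (−1.12) and Sox21 (−1.65).

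The labels do not say whether equal replicate numbers mark a shared round, and the deviations of same-numbered libraries correlated at 0.21. With the replicate block 4444 genes were called, and the Sox4, Sox9 and Sox21 calls held (adjusted p = 2.5e-13, 2.18e-05 and 0.00202 by limma), while Sox13 did not pass (0.0522). The block adds a term to the same few libraries, so these p-values lean mostly on the variance that limma shares over all genes. They are therefore not stronger support than those of the main fit. The difference between populations in the log2 Sox4 to Sox9 ratio ranged from −3.67 to −3.01 without 1 library at a time. With 2 libraries per group such a shift cannot exceed the pooled SD, so its size tests nothing. The difference was −3.32 with part 1, −3.11 with pooled reads and −3.96 with part 2. Sox12 and Sox21 rest on 6 to 56 reads per library, which limits their precision.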
